A study of Mus musculus with 12 samples.

Results

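The 9 genes described here encode alternative forms of 4 enzymes of glycolysis: the hexokinases *Hk1* and *Hk2*, the phosphofructokinases *Pfkl*, *Pfkm* and *Pfkp*, the pyruvate kinases *Pkm* and *Pklr*, and the lactate dehydrogenases *Ldha* and *Ldhb*. They were taken by name from the 38127 genes of the count files, and each name matched 1 gene. Their levels, their shares within each enzyme family, and their differences between 4 groups of sorted mouse fetal liver (FL) cells are given below.

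RNA-seq was performed on 12 libraries from FL of C57BL/6 embryos, 3 per group, all from cells lacking the erythrocyte marker Ter119 and the pan-hematopoietic marker CD45. The E14.5 groups were 3: P2 cells, sorted as CD54-CD31-Kit+CD24+, CD324+ cells, which the labels describe as CD54+CD31- and which stand for the epithelial (hepatoblast) fraction, and CD31+ cells, labelled CD54+CD31+ and standing for the endothelial fraction. The last group was sorted with the CD54+CD31- gate at E18.5. The labels name no transgene or treatment, and the replicates of the E14.5 populations came from independent litters.

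Glycolysis turns glucose into pyruvate, and its entry step (hexokinase), its committed step (phosphofructokinase), and its last step (pyruvate kinase) are the ones that cells regulate most. Each of these steps, and the interconversion of pyruvate and lactate by lactate dehydrogenase, can be catalysed by products of several genes with different kinetics, feedback control and tissue distribution. FL holds erythroid progenitors, which depend on glycolysis as they mature and finally lose their mitochondria, beside hepatoblasts, which later take up gluconeogenesis, and endothelial cells.

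Depth was 40714017 to 64368883 counts per library, so counting error was small for all 9 genes except *Ldhb* in P2 cells, where 30 to 59 reads were counted. Levels are CPM, the reads of a gene relative to the TMM-adjusted size of its library, and shares are computed per kb of exon. Most marker genes were highest in the matching population at E14.5. The summed level of 8 erythroid markers was 1813 to 2021 CPM in P2 cells against 257 to 596 CPM in the other E14.5 libraries, with 7 of the 8 highest in P2 cells and *Hbb-bs* lower there (mean 41.6 CPM against 81.5 CPM in CD324+ and 86.6 CPM in CD31+ cells). That of 8 hepatoblast markers was 69013 to 79343 CPM in CD324+ cells against 673 to 907 CPM in P2 and CD31+ cells. The 7 endothelial markers summed to 7196 to 7650 CPM in CD31+ cells, 34.8 to 58.9 CPM in CD324+ cells, and 46.2, 296 and 77.8 CPM in P2 replicates 1, 2 and 3. The E18.5 libraries stood apart from their label: 6 lung epithelium markers summed to 17476, 7645 and 7970 CPM in replicates 1, 2 and 3, against at most 3.08 CPM in any E14.5 library, and the hepatoblast markers summed to only 5434 CPM in replicate 1 against 35773 and 46059 CPM in the others. Tests of the 9 genes at E18.5 are therefore given with and without replicate 1.

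The promoter sequences of *Pklr*, *Ldha* and *Ldhb* are shown first, because *Pklr* has separate erythroid and liver starts and the *Ldhb* to *Ldha* ratio set P2 cells apart. RefSeq (GRCm38.p6) gives *Pklr* a pair of starts that lie 481 bases apart on the plus strand of chromosome 3. The upstream start is known as the erythroid (R-type) and the downstream start as the liver (L-type) promoter, and both transcripts are counted as *Pklr* here, so the libraries do not tell them apart. The first window is the 250 bases before the upstream start (chr3:89135892-89136141). The second is the part, 199 bases long, of the downstream window that no exon of *Pklr* covers (chr3:89136373-89136571); the 51 exon bases between it and the start are left out. The window printed for *Ldha* is that of the first of its 2 RefSeq starts, which lies inside the annotated span of the gene (chr7:46845554-46845803, plus strand), and the *Ldhb* window chr6:142507958-142508207 on the minus strand. All are written 5′ to 3′, with capitals for matches, on either strand, to GATAA (the letters bound by GATA factors) or to ACGTG (the core letters of hypoxia response elements and of some E-boxes).
Pklr upstream start: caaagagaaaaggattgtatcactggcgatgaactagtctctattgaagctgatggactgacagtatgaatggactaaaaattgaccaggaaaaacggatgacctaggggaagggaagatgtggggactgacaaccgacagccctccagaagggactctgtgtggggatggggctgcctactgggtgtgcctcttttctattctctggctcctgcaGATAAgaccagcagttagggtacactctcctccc
Pklr downstream start: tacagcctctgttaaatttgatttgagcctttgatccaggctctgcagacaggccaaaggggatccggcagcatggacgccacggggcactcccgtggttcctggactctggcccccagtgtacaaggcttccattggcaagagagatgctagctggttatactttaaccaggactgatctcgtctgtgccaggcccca
Ldha: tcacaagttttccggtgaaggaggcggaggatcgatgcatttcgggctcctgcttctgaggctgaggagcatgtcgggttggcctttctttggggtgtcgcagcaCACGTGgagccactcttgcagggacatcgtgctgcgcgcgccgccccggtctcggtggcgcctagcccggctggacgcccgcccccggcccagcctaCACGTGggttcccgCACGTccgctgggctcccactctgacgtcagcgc
Ldhb: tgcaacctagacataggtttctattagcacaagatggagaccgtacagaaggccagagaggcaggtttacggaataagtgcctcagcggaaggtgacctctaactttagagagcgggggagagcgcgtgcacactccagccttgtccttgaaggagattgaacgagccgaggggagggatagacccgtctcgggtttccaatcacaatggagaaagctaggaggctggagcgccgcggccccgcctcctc

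The upstream window held 1 GATAA, from -34 to -30 relative to the start of *Pklr*, and the part of the downstream window that is shown held neither motif. GATAA was found in 22.6% of the 32851 RefSeq windows of 250 bases in the same table. The first *Ldha* window held ACGTG in 3 places, with overlapping matches on both strands at -145 to -140 and at -48 to -43, and 1 match at -34 to -30, whereas ACGTG was found in 16.6% of all windows. The window of the second *Ldha* start (chr7:46846832-46847081) and the *Ldhb* window held neither motif. Of the *Pkm* windows, which are mostly exon and not printed, the first held 2 GATAA and the second 1 ACGTG. CpG dinucleotides numbered 3 and 5 in the full 250-base windows of the upstream and downstream *Pklr* starts, 25 and 9 in those of the first and second *Ldha* starts and 14 in that of *Ldhb*, with a median of 6 over all windows. These matches describe the letters only, and binding was not measured.

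The plot of levels by library shows each of the 9 genes over the 4 groups. All 9 genes passed the filter on low counts in every comparison. *Pkm* and *Ldhb* were the members whose highest group mean exceeded 10 times the lowest (2 of 9, against 35.7% of 16643 genes). The smallest span was that of *Pfkl*, 2.33-fold between P2 cells and the E18.5 group.

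**Figure D1:**
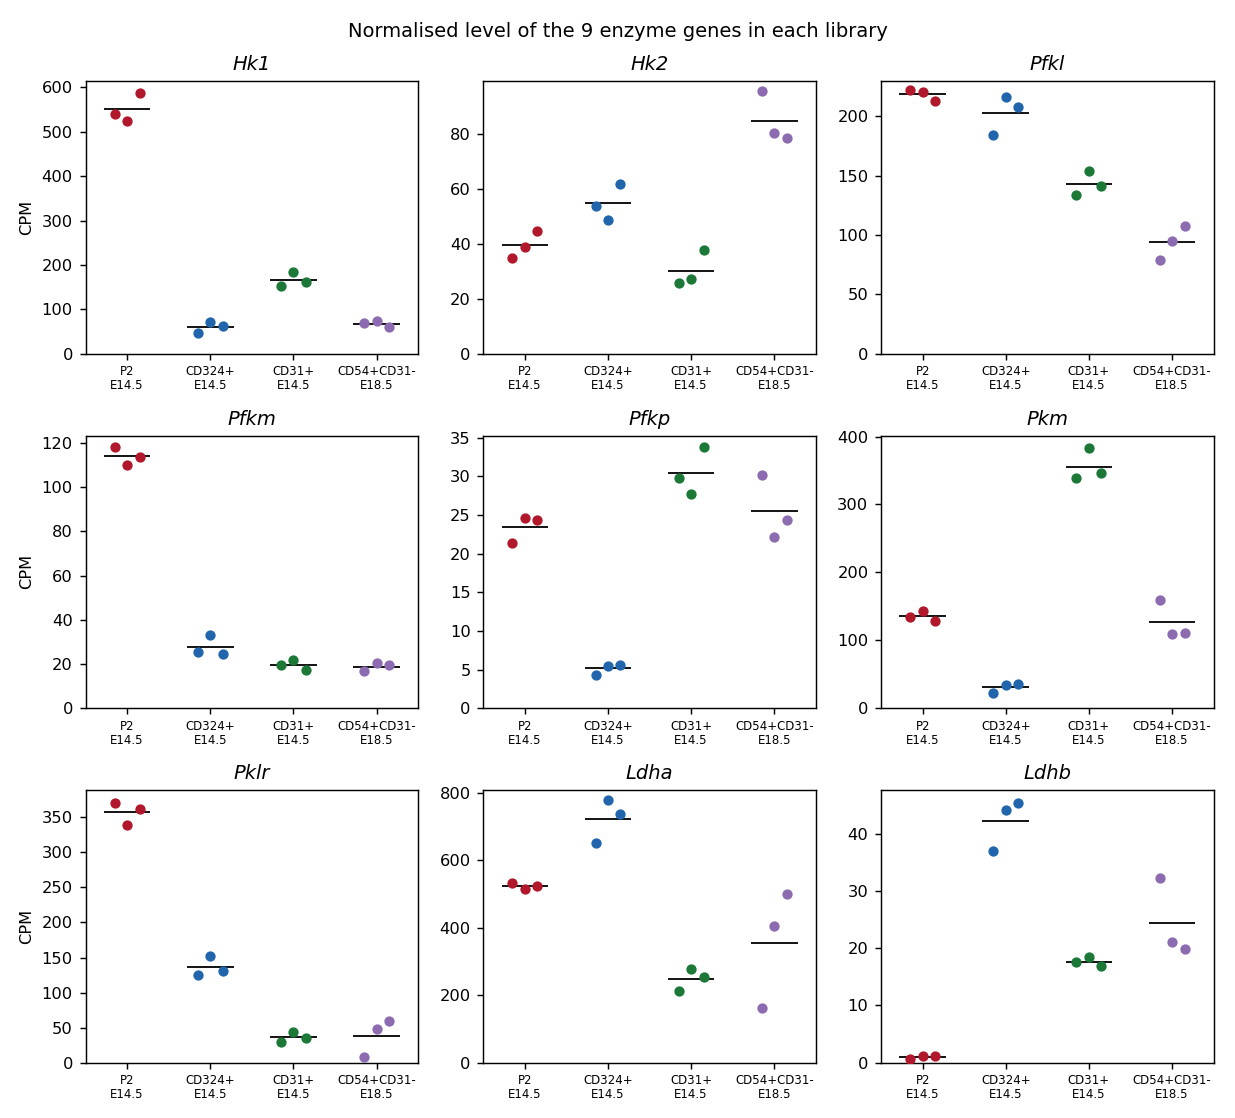
CPM of the 9 genes (y axis, from 0, with its own range for each gene) in the 12 libraries, with 3 points per group in the order of replicates 1 to 3 and a line at the group mean. *Hk1*, *Pfkm* and *Pklr* were highest in P2 cells, *Ldha* and *Ldhb* in CD324+ cells, *Pkm* and *Pfkp* in CD31+ cells, and *Hk2* in the E18.5 group, where replicate 1 lay far below the others for *Pklr* (7.49 CPM) and *Ldha* (160.4 CPM).

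Hexokinase phosphorylates glucose and so keeps it in the cell. *Hk1* (ENSMUSG00000037012, chr10:62268855-62379908, minus strand), the broadly expressed form that docks on mitochondria and is the main hexokinase of red cells, measured 539, 525 and 587 CPM in P2 cells and 46.7, 71.5 and 62.2 CPM in CD324+ cells. In CD31+ cells it was at 154, 185 and 160.5 CPM, between the other E14.5 groups and overlapping neither. *Hk1* was 9.05-fold higher in P2 than in CD324+ cells (log2 fold change 3.18, SE 0.153, adjusted p = 2.83e-08) and 3.29-fold higher in P2 than in CD31+ cells (adjusted p = 1.92e-06). *Hk1* is in the study's own list of genes raised in P2 cells, which was drawn from these libraries, so its direction there is not independent evidence.

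*Hk2* (ENSMUSG00000000628, chr6:82725025-82774454, minus strand), the insulin- and hypoxia-responsive form of muscle, fat and many growing cells, did not follow *Hk1*. Its levels were 34.6, 38.8 and 44.6 CPM in P2 cells, 53.8, 48.4 and 61.8 CPM in CD324+ cells, and 25.8, 27.0 and 37.6 CPM in CD31+ cells. It was 1.41-fold lower in P2 than in CD324+ cells (log2 fold change -0.49, SE 0.161, adjusted p = 0.0186), but this call was lost without CD324+ replicate 3 (adjusted p = 0.0762) or P2 replicate 1 (adjusted p = 0.0585). *Hk2* overlapped between P2 and CD31+ cells (log2 fold change 0.37, adjusted p = 0.0573). The latter difference passed the threshold without CD31+ replicate 3, P2 replicate 1 or CD324+ replicate 2 (adjusted p = 0.00311, 0.0177 and 0.0287).

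The fold difference of an isoform ratio between groups depends neither on gene length nor on the scaling of libraries. The *Hk2* to *Hk1* ratio was 12.9-fold lower in P2 than in CD324+ cells (log2 difference -3.69, SE 0.240) and 2.52-fold lower in P2 than in CD31+ cells (log2 difference -1.33, SE 0.215). Per kb of exon, *Hk1* made up 90.8% ± 0.747 (SD, n = 3) of the *Hk1* and *Hk2* signal in P2 cells, 79.4% ± 4.03 in CD31+ cells and 43.3% ± 6.73 in CD324+ cells. Which of the pair led in CD324+ cells depended on the length used: the *Hk1* share there was 51.3% with coding lengths and 58.3% with the longest transcript. Ratios and shares were not given a p-value, since an exact permutation test of 3 libraries against 3 cannot go below 0.1.

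The hexokinase pair did not cover the family in CD324+ cells. *Hkdc1*, a further hexokinase gene of liver and gut epithelium, measured 98.4, 82.2 and 92.5 CPM in CD324+ cells, under 1.3 CPM in every P2 and CD31+ library, and 23.1 to 34.8 CPM at E18.5. Over 4 hexokinase genes (*Hk1*, *Hk2*, *Hk3* and *Hkdc1*), a set added after the data had been seen, *Hkdc1* accounted for 50.5% ± 4.59 of the CD324+ signal per kb, and the *Hk1* share there came to 15.9, 24.8 and 19.5% in replicates 1, 2 and 3. In P2 cells the *Hk1* share over the 4 genes was 90.5% ± 0.756.

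**Figure D2:**
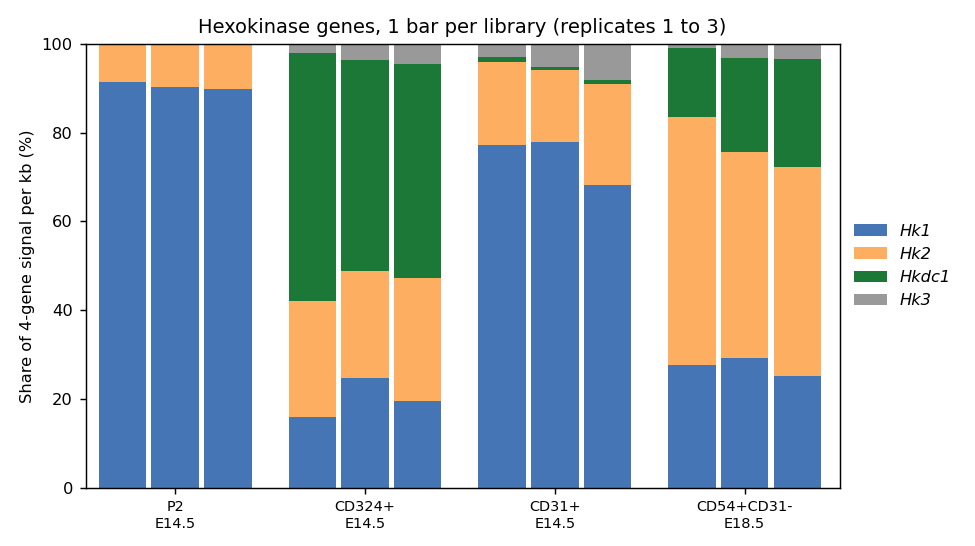
Share of 4 hexokinase genes in their summed signal per kb of exon (y axis, percent), 1 stacked bar per library and 3 libraries per group. *Hk1* fills most of each P2 and CD31+ bar, *Hkdc1* takes 47.5 to 55.8% of the CD324+ bars and *Hk2* 46.3 to 55.8% of the E18.5 bars.

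Phosphofructokinase works as a tetramer of liver-type (*Pfkl*), muscle-type (*Pfkm*) and platelet-type (*Pfkp*) subunits, which can mix; red cells are known to hold liver and muscle subunits. *Pfkl* (ENSMUSG00000020277, chr10:77986947-78010083, minus strand) was the steadiest of the 9 genes. It measured 222, 221 and 213 CPM in P2 cells, 184, 216 and 208 CPM in CD324+ cells, and 134, 154 and 141 CPM in CD31+ cells. P2 and CD324+ cells overlapped, and the difference of 0.09 on the log2 scale (SE 0.0872, adjusted p = 0.373) corresponds to 1.06-fold. Its sign turned with the authors' library factors, which gave -0.17.

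*Pfkm* (ENSMUSG00000033065, chr15:98092589-98132451, plus strand) separated P2 cells from the rest. It was at 118, 110.2 and 113 CPM in P2 cells, against 25.4, 33.0 and 24.6 CPM in CD324+ cells and 19.5, 21.9 and 17.3 CPM in CD31+ cells. The differences were 4.07-fold from CD324+ cells (log2 fold change 2.03, SE 0.13, adjusted p = 2.52e-07) and 5.78-fold from CD31+ cells (adjusted p = 1.01e-07). The *Pfkm* to *Pfkl* ratio was accordingly 3.84-fold higher in P2 than in CD324+ cells and 3.82-fold higher than in CD31+ cells, while it differed by 0.01 on the log2 scale (SE 0.132) between CD31+ and CD324+ cells.

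*Pfkp* (ENSMUSG00000021196, chr13:6579768-6648777, minus strand) was the lowest of the 3 subunits per kb of exon in all groups. With coding lengths *Pfkp* stayed lowest in P2 and CD324+ cells only. Its mean share then exceeded that of *Pfkm* in CD31+ cells (15.8% against 10.1%) and also at E18.5. The levels of *Pfkp* were 21.4, 24.6 and 24.3 CPM in P2 cells, 4.33, 5.45 and 5.63 CPM in CD324+ cells, and 29.8, 27.7 and 33.8 CPM in CD31+ cells. CD324+ cells thus stood apart from both other E14.5 groups, by 4.50-fold from P2 cells (adjusted p = 1.81e-07) and 5.90-fold from CD31+ cells (adjusted p = 6.8e-08). The 1.31-fold lower level in P2 than in CD31+ cells (log2 fold change -0.39, adjusted p = 0.0154) was lost without CD31+ replicate 3 (adjusted p = 0.119) or P2 replicate 1 (adjusted p = 0.147). *Pfkp* shares 748 bases of exon with *Pitrm1* on the opposite strand, and the use of strand in the counting is not stated.

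Subunit shares per kb were almost even between *Pfkl* (47.7% ± 0.862) and *Pfkm* (49.7% ± 0.981) in P2 cells, with *Pfkp* at 2.55% ± 0.245. In CD324+ cells *Pfkl* made up 77.9% ± 2.06, *Pfkm* 21.2% ± 2.13 and *Pfkp* 0.981% ± 0.0882. CD31+ cells had a *Pfkm* share close to that of CD324+ cells (19.8% ± 1.60) and a *Pfkp* share of 7.73% ± 1.12. With coding lengths the *Pfkm* share in P2 cells came to 32.0%, so the evenness rests on the length chosen, whereas the ratios between groups do not.

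**Figure D3:**
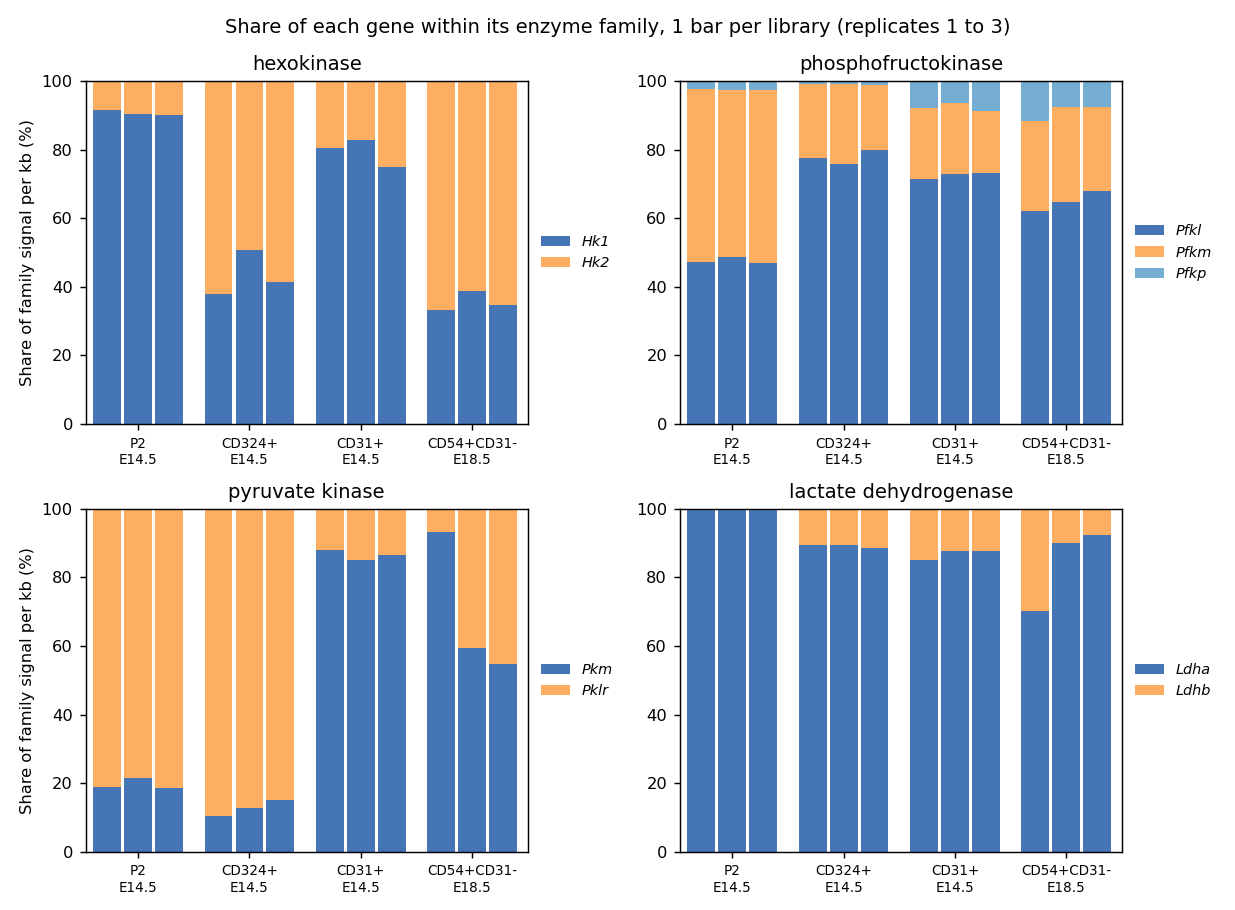
Share of each gene in the summed signal per kb of exon of its family (y axis, percent), 1 stacked bar per library and 3 libraries per group. The pyruvate kinase bars turn from mostly *Pklr* in P2 and CD324+ cells to mostly *Pkm* in CD31+ cells, and E18.5 replicate 1 (*Pklr* 6.78%) departs from replicates 2 and 3 (40.5 and 45.3%).

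Pyruvate kinase makes pyruvate and ATP at the end of glycolysis. *Pkm* encodes the M1 and M2 forms, made by splicing and not separable in gene counts, and *Pklr* the liver and red cell forms. *Pklr* (ENSMUSG00000041237, chr3:89136142-89146784, plus strand) measured 371, 339.7 and 362 CPM in P2 cells, 125, 152 and 131 CPM in CD324+ cells, and 29.6, 43.5 and 34.5 CPM in CD31+ cells. None of these groups overlapped. *Pklr* was 2.59-fold higher in P2 than in CD324+ cells (log2 fold change 1.37, SE 0.136, adjusted p = 6.34e-06), 9.89-fold higher in P2 than in CD31+ cells (adjusted p = 4.73e-08), and 3.81-fold lower in CD31+ than in CD324+ cells (adjusted p = 6.96e-07).

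The CD31+ mean of *Pklr* was 26.4% of the CD324+ mean and 10.03% of the P2 mean. In the same CD31+ libraries the hepatoblast markers were at 1.14% of their CD324+ sum and the erythroid markers at 19.2% of their P2 sum. The erythroid markers in CD324+ cells were at 24.0% of the P2 sum, beside 38.1% for *Pklr*. The part of erythroid RNA in the *Pklr* of these groups was not tested, and in bulk RNA fewer cells of a type and less RNA per cell cannot be told apart.

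*Pkm* (ENSMUSG00000032294, chr9:59656368-59679375, plus strand) followed another order. It was highest in CD31+ cells, at 338, 384 and 346 CPM, then at 135, 144 and 128 CPM in P2 cells, and lowest in CD324+ cells, at 22.5, 34.5 and 35.4 CPM. CD31+ cells exceeded CD324+ cells 11.5-fold (log2 fold change 3.52, SE 0.164, adjusted p = 2.7e-08) and P2 cells 2.65-fold (adjusted p = 1.15e-05). P2 cells exceeded CD324+ cells 4.34-fold (adjusted p = 6.8e-07). The *Pkm* mean of P2 cells was 38.0% of that of CD31+ cells, while the endothelial markers were at 0.619, 3.97 and 1.04% of their CD31+ sum in P2 replicates 1, 2 and 3. Of 6 macrophage markers, *Mrc1*, which liver endothelium also expresses, was at 1305 to 1517 CPM in CD31+ cells, and the other 5 were highest in CD324+ cells. The 5 granulocyte markers summed to 123 to 520 CPM in CD31+ cells and 1.70 to 3.52 CPM in P2 cells. Their sums in CD324+ replicates 1, 2 and 3 were 5.49, 93.2 and 5.77 CPM. Of the 5 markers, 4 were highest in CD31+ cells and *Ly6g* was at 0 in all E14.5 libraries. The part of granulocyte RNA in the *Pkm* and *Pfkp* levels was not tested.

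*Pklr* contributed 87.3% ± 2.26 of the pyruvate kinase signal per kb in CD324+ cells, 80.3% ± 1.56 in P2 cells and 13.4% ± 1.49 in CD31+ cells. The *Pklr* to *Pkm* ratio differed 45.1-fold between CD31+ and CD324+ cells (log2 difference -5.49, SE 0.203) and 26.5-fold between P2 and CD31+ cells (log2 difference 4.73, SE 0.134). Between P2 and CD324+ cells the ratio differed only 1.70-fold (log2 difference -0.76, SE 0.190), although both genes were higher in P2 cells. Summed over both genes, pyruvate kinase signal was 138 ± 3.94 CPM per kb of exon in P2 cells, 82.3 ± 6.99 in CD31+ cells and 48.2 ± 5.40 in CD324+ cells. Unlike the isoform ratios, these sums and their ratios between groups depend on the length used. Exon lengths are 5001 bases for *Pkm* and 3236 for *Pklr*, against coding lengths of 1593 and 1722. Sums with other lengths were not computed.

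Lactate dehydrogenase subunits A (muscle type) and B (heart type) form mixed tetramers, and A-rich enzyme is associated with lactate production. *Ldha* (ENSMUSG00000063229, chr7:46841475-46855627, plus strand) was high in all groups. It measured 532, 515 and 523 CPM in P2 cells, 651, 777 and 735 CPM in CD324+ cells, and 211, 278 and 254 CPM in CD31+ cells. The groups did not overlap. *Ldha* was lower in P2 than in CD324+ cells (log2 fold change -0.48, SE 0.109, adjusted p = 0.00259; adjusted p = 0.202 with all 12 libraries in 1 fit) and 2.10-fold higher in P2 than in CD31+ cells (adjusted p = 8.74e-06). *Ldha* has many processed copies in the mouse genome, and how reads with several alignments were counted is not stated.

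*Ldhb* (ENSMUSG00000030246, chr6:142490249-142507957, minus strand) was barely counted in P2 cells, at 0.689, 1.23 and 1.10 CPM. CD324+ cells were at 37.0, 44.1 and 45.4 CPM and CD31+ cells at 17.5, 18.5 and 16.8 CPM. This was the largest difference of any member: 42.2-fold lower in P2 than in CD324+ cells (log2 fold change -5.40, SE 0.19, adjusted p = 2.83e-09) and 17.5-fold lower in P2 than in CD31+ cells (adjusted p = 4.84e-08). *Ldhb* also differed between CD31+ and CD324+ cells, by 2.41-fold (adjusted p = 3.22e-05).

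The low level in P2 cells was 2.38% of the CD324+ mean, where the hepatoblast markers were at 0.893% of their CD324+ sum. In CD31+ cells *Ldhb* was at 41.7% of the CD324+ mean, where the hepatoblast markers were at 1.14%. Relative to *Ldha*, *Ldhb* was 31.3-fold lower in P2 than in CD324+ cells (log2 difference -4.97, SE 0.271) and 38.3-fold lower than in CD31+ cells (log2 difference -5.26, SE 0.289), and differed 1.22-fold between CD31+ and CD324+ cells. The *Ldhb* share of the pair per kb was 0.404% ± 0.118 in P2, 11.0% ± 0.468 in CD324+ and 13.1% ± 1.52 in CD31+ cells.

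Counted over the members, 5 of 9 genes were higher and 3 lower in P2 than in CD324+ cells, with 70.0% of 15461 genes passing the same test in either direction (33.8% higher, 36.1% lower). The median log2 fold change of the members was 1.37, against -0.01 over all genes. Against CD31+ cells, 5 were higher and 3 lower in P2 cells (73.7% of all genes passed, 34.3% higher and 39.4% lower, medians 0.60 and -0.13). Between CD31+ and CD324+ cells, 3 were higher and 6 lower in CD31+ cells (65.6% of all genes passed, 31.7% higher and 34.0% lower, medians -0.51 and -0.03). The libraries of the compared groups did not overlap for 8, 8 and 9 of the 9 genes, with 75.3, 77.1 and 69.5% of all genes doing the same. Most genes passed in each comparison and the comparisons share libraries, so the counts describe the members only.

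**Figure D4:**
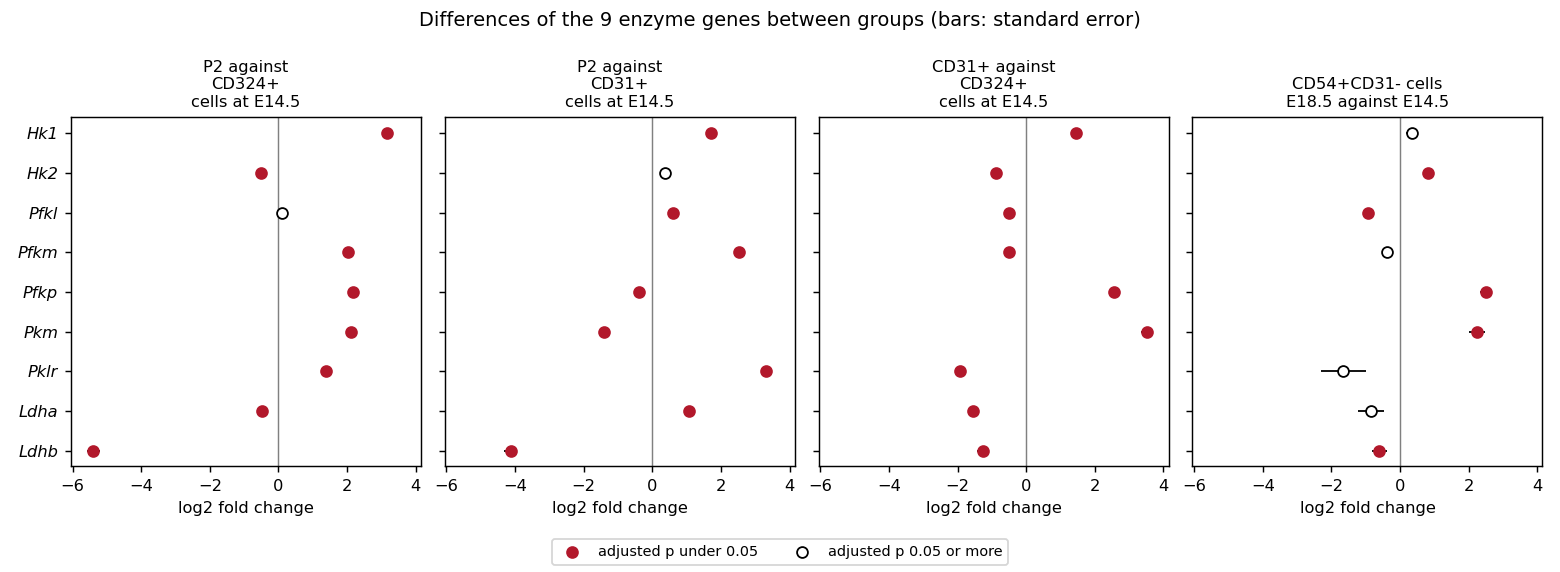
Log2 fold change (x axis) of the 9 genes in the 4 comparisons, with bars for the standard error. Filled points passed the test (adjusted p below 0.05) and open points did not. *Ldhb* lies farthest to the left in both P2 comparisons, *Pkm* and *Pklr* change sides between panels, and the wide bars at E18.5 are those of *Pklr* (SE 0.65) and *Ldha* (SE 0.378).

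The CD54+CD31- gate at E18.5 was compared with the same gate at E14.5 (CD324+ cells). Of the 9 genes, 3 were higher and 2 lower at E18.5, with 69.4% of 15863 genes passing the test (35.9% higher, 33.5% lower), and 8 of 9 did not overlap between the ages (77.8% of all genes). *Hk2* rose to 95.6, 80.2 and 78.2 CPM (1.76-fold, adjusted p = 0.00159). *Pfkp* rose to 30.1, 22.2 and 24.4 CPM (5.68-fold, adjusted p = 4.44e-05) and *Pkm* to 159, 109.6 and 111 CPM (4.70-fold, adjusted p = 0.000204). *Pfkl* fell to 79.1, 94.9 and 108 CPM (1.90-fold, adjusted p = 0.000715). Without E18.5 replicate 1 these 4 genes passed as well, with log2 fold changes of 0.70 for *Hk2* (adjusted p = 0.000294), 2.35 for *Pfkp* (adjusted p = 9.49e-07), 2.01 for *Pkm* (adjusted p = 6.12e-06) and -0.83 for *Pfkl* (adjusted p = 6.64e-05).

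*Ldhb* was at 32.2, 21.1 and 19.9 CPM at E18.5 (1.51-fold lower, adjusted p = 0.0374). This call was lost without CD324+ replicate 2 or 3 (adjusted p = 0.092 and 0.0785) and without E18.5 replicate 2 or 3 (adjusted p = 0.112 and 0.0971), with the authors' factors (adjusted p = 0.179) and with at least 10 counts in every library (adjusted p = 0.102). It held without E18.5 replicate 1 (log2 fold change -0.87, adjusted p = 7.37e-05). *Hk1* (68.0, 72.5 and 59.6 CPM, adjusted p = 0.0974) and *Pfkm* (16.8, 20.2 and 19.4 CPM, adjusted p = 0.0503) did not pass the test, nor did they without E18.5 replicate 1 (adjusted p = 0.109 and 0.0699). *Hk1* passed it without CD324+ replicate 2 (adjusted p = 0.0468), with the authors' factors (adjusted p = 0.0121) and with at least 10 counts in every library (adjusted p = 0.03). *Pfkm* passed it without CD324+ replicate 3 (adjusted p = 0.0491) and with all 12 libraries in 1 fit (adjusted p = 0.00276).

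*Pklr* and *Ldha* differed widely among the E18.5 libraries. *Pklr* was at 7.49, 48.3 and 59.5 CPM and *Ldha* at 160.4, 406 and 499 CPM, below all CD324+ libraries, yet neither passed the test (log2 fold change -1.65, SE 0.65, adjusted p = 0.0578, and -0.84, SE 0.378, adjusted p = 0.0854). Without E18.5 replicate 1 both passed, with log2 fold changes of -1.17 (adjusted p = 3.16e-05) and -0.50 (adjusted p = 0.00591). They also passed without replicate 3 (adjusted p = 0.0449 and 0.0387). The summed hepatoblast markers were at 7.17, 47.2 and 60.8% of their CD324+ mean in E18.5 replicates 1, 2 and 3. In the same order *Pklr* was at 5.50, 35.5 and 43.7% and *Ldha* at 22.2, 56.3 and 69.2%. The summed erythroid markers were also lowest in replicate 1, at 129, 230 and 192 CPM, against 346 to 596 CPM in CD324+ cells. The part of erythroid RNA in the *Pklr* level at E18.5 was not tested. Not all 8 hepatoblast markers followed their sum. *Cdh1* (944, 668 and 701 CPM) and *Dlk1* (1364, 787 and 842 CPM) were highest in replicate 1, and the others were lowest there. *Pkm* and *Pfkp*, which rose, were highest in replicate 1, as were the lung epithelium markers, and 5 stellate and mesenchymal markers summed to 3118 to 3454 CPM at E18.5 against 93.7 to 178 CPM in CD324+ cells. Age and the makeup of the libraries cannot be told apart in this comparison.

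Family shares at E18.5 moved with replicate 1 in the same way. The *Pklr* share per kb was 6.78, 40.5 and 45.3%, so that the *Pklr* to *Pkm* ratio was 20.1-fold lower than in CD324+ cells (log2 difference -4.33, SE 1.14), or -3.21 on the log2 scale without replicate 1. The *Ldhb* share was 29.7, 9.88 and 7.76%, and the log2 difference of the *Ldhb* to *Ldha* ratio changed sign from 0.35 (SE 0.723) to -0.36 without replicate 1. The shares of phosphofructokinase subunits were steadier, with *Pfkl* at 62.0, 64.8 and 67.9% and *Pfkp* at 11.8, 7.56 and 7.65%.

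**Figure D5:**
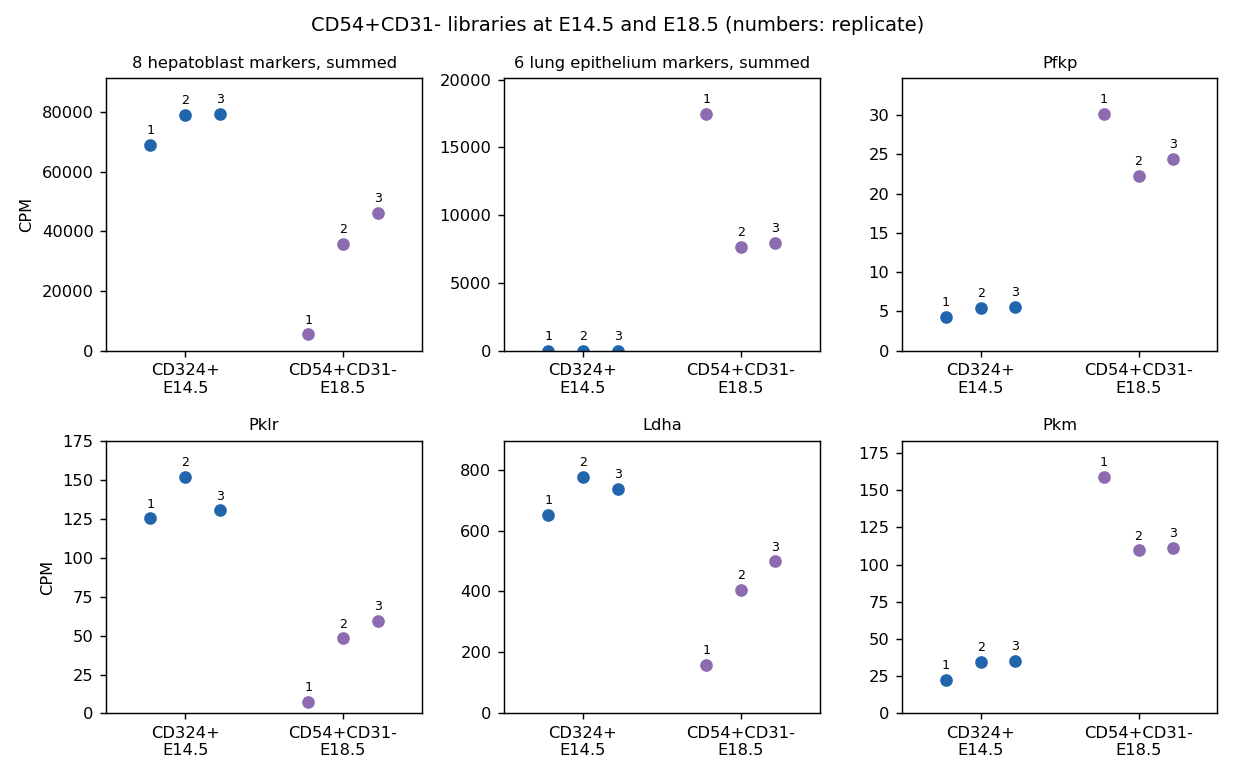
CPM (y axis, from 0) of the summed hepatoblast and lung epithelium markers and of *Pfkp*, *Pklr*, *Ldha* and *Pkm* in the 3 CD324+ libraries at E14.5 and the 3 CD54+CD31- libraries at E18.5, with the replicate number above each point. E18.5 replicate 1 is lowest for the summed hepatoblast markers (5434 CPM), *Pklr* and *Ldha*, and highest for the summed lung markers (17476 CPM), *Pfkp* and *Pkm*.

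The enzymes between these regulated steps were followed in a list of 13 genes. In P2 against CD324+ cells, 2 of 12 tested were higher, 6 lower and 4 did not pass (33.8% of all genes were higher and 36.1% lower). In P2 against CD31+ cells, 6 were higher and 2 lower, with a median log2 fold change of 0.29 (34.3 and 39.4% of all genes). In CD31+ against CD324+ cells, 2 of the 12 were higher and 8 lower, with a median log2 fold change of -0.95 (31.7 and 34.0% of all genes). At E18.5 against E14.5, 3 of 13 were higher and 6 lower (35.9 and 33.5% of all genes).

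Of 7 glucose and lactate transporters, 2 were higher and 3 lower in P2 than in CD324+ cells (33.8 and 36.1% of all genes). *Slc16a7*, which encodes the high-affinity monocarboxylate transporter MCT2, changed most, at 0.873, 1.21 and 1.25 CPM in P2 cells against 83.4, 81.7 and 91.1 CPM in CD324+ cells (adjusted p = 7.67e-10). In CD31+ cells it was at 3.24 to 4.56 CPM. *Slc16a7* and *Ldhb* were thus both lowest in P2 cells and highest in CD324+ cells. *Slc16a3* and *Slc16a1*, named after their values were seen, did not share this order. Mean *Slc16a3* was highest in P2 cells (73.9 CPM, against 16.6 CPM in CD324+ cells). Mean *Slc16a1* was 201 CPM in P2, 203 CPM in CD324+ and 55.6 CPM in CD31+ cells. The share of all genes with this order was not computed.

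Among 12 regulators of glycolytic flux, 3 were higher and 8 lower in P2 than in CD324+ cells (33.8 and 36.1% of all genes). At E18.5, 9 of the 12 were higher than in CD324+ cells (35.9% of all genes) and 2 lower (33.5% of all genes), *Pfkfb3* (log2 fold change -0.93, adjusted p = 0.00796) and *Mpc2* (log2 fold change -1.94, adjusted p = 0.000503), both named after their values were seen. *Pfkfb1*, which encodes the liver form of the bifunctional enzyme that sets the activator of phosphofructokinase, had the largest change, at 5.02, 38.0 and 50.8 CPM against 5.85 to 7.43 CPM (adjusted p = 0.0238), again lowest in replicate 1.

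Of the gluconeogenic genes, which oppose the steps of the members, 4 of 6 were higher at E18.5 than at E14.5 (35.9% of all genes). *Pck2* was lower (log2 fold change -0.58, adjusted p = 0.00555; 33.5% of all genes) and *Pck1* did not pass (adjusted p = 0.628); *Pck2* is named after its values were seen. *Fbp1*, the enzyme that reverses the phosphofructokinase step, was at 16.6, 205 and 263 CPM at E18.5 against 1.86 to 2.47 CPM in CD324+ cells (adjusted p = 0.00149). *G6pc*, which reverses the hexokinase step, was at 2.31, 25.1 and 34.8 CPM against at most 0.0566 CPM, and *Pcx*, which starts the bypass of pyruvate kinase, was at 155, 276 and 369 CPM against 106 to 116 CPM (adjusted p = 0.00421). *Fbp1*, *G6pc* and *Pcx* were lowest in E18.5 replicate 1, as were *Pklr* and *Ldha*.

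All 10 factors listed for their known action on these genes differed between P2 and CD324+ cells, with 5 higher and 5 lower in P2 cells (70.0% of all genes passed). *Mlxipl*, which encodes the glucose-responsive activator ChREBP known to act on the liver promoter of *Pklr*, changed most, at 0.988 to 1.75 CPM in P2 cells against 81.3 to 123 CPM in CD324+ cells (adjusted p = 9.86e-09). *Klf1*, an erythroid activator, measured 347 to 429 CPM in P2 cells, 41.8 to 77.4 CPM in CD324+ cells and 27.5 to 43.0 CPM in CD31+ cells. *Klf1* is named here after its values were seen.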

How the data were processed

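RNA of 12 libraries was analysed. The authors removed ribosomal RNA enzymatically, prepared stranded total RNA libraries, trimmed reads with cutadapt 1.11, aligned them to GRCm38 with STAR 2.5.0a and counted genes with featureCounts 1.4.6-p3. Whether counting used strand, and how reads with several alignments were treated, is not given in the sources used here. The authors deposited raw counts, used for every test, and a score per gene, which equals the count after scaling by a library's factor (DESeq2, per the study's methods) and rounding, and served only to recover those factors.

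Tests used edgeR 4.0.16 in R 4.3.3 (TMM, filterByExpr, quasi-likelihood test, Benjamini-Hochberg adjustment over all genes tested, adjusted p below 0.05). The 9 E14.5 libraries shared 1 fit and the 6 CD54+CD31- libraries another. P-values set a group difference against the spread between libraries within groups, 3 per group, estimated over all groups of a fit. Replicates differed by more than sampling noise. The test was also run on simulated counts, whose settings and outcome are not reported here. Levels were computed with all 12 libraries scaled together, and shares from counts per kb of the union of GENCODE vM21 exons. Coordinates are GRCm38, and promoter windows are from RefSeq (all 9 genes matched, with 16 starts).

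The members, lists and tests were chosen with earlier results of these data known. Beside the members, genes were named where their change was the largest of their list in a comparison or where they are counterparts of a member. Alternatives were DESeq2 1.42.0, its size factors, the authors' factors, other filters, a replicate block, other sets of libraries, other gene lengths and each library left out. The share over 4 hexokinase genes was added after the data had been seen. Protein sequences were not used here, and some genes of the lists are not reported here.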

Additional observations from a re-analysis of the deposited data

How the results depend on the processing

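Of 612 alternative values of the members' log2 fold changes, 580 kept their direction and side of the threshold, 18 passed it newly, 12 no longer passed it and 2 changed sign. Both sign changes were those of *Pfkl* between P2 and CD324+ cells, at -0.17 with the authors' library factors (adjusted p = 0.0752) and -0.00499 with at least 10 counts in every library. With all 12 libraries in 1 fit, 8 instead of 5 members passed at E18.5. Leaving out 1 library moved the *Pfkm* to *Pfkl* difference between CD31+ and CD324+ cells from -0.0877 to 0.0957 and the *Ldhb* to *Ldha* difference at E18.5 from -0.36 to 0.81 (log2). The causes were not tested.

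The authors' factors shifted the median log2 fold change of all genes by -0.26 (P2 against CD324+), -0.37 (P2 against CD31+), 0.11 (CD31+ against CD324+) and 0.23 (E18.5). The share of calls that were higher in P2 cells went from 48.3 to 38.2% and from 46.6 to 33.9%.

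Same-numbered libraries of different groups, E18.5 included, had correlations of deviations from -0.00219 to 0.151. Differently numbered libraries were not compared in this way, so these values cannot decide whether the numbers mark pairs. The main tests did not treat them as pairs. With the replicate block 10910, 11460, 10326 and 10329 genes passed, against 10815, 11395, 10150 and 11014 without it. Under the block *Hk2* passed between P2 and CD31+ cells (adjusted p = 0.00737), *Pklr* passed at E18.5 (adjusted p = 0.0491) and *Ldhb* there did not (adjusted p = 0.0616). No other member call changed with it.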

Other observations

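The genes whose log2 CPM followed each member most closely over the 12 libraries were also recorded. They describe 4 groups of 3 libraries that share their depth and makeup, and carry no test. *Hk1* was followed most closely by *Kit* (Pearson r = 0.994, n = 12), whose product was used to sort P2 cells. *Pfkl* was followed by *Phb* (r = 0.994), *Pfkm* by *Tarsl2* (r = 0.996), *Pfkp* by *Igf1r* (r = 0.994), *Pkm* by *Mlxip* (r = 0.993), *Pklr* by *Abcb4* (r = 0.993) and *Ldhb* by *H1f0* (r = 0.995). *Hk2* had the lowest leading value, with *Edem3* (r = 0.974), close to that of *Ldha* with *1810055G02Rik* (r = 0.975).

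*Bpgm*, which makes the 2,3-bisphosphoglycerate that lowers the oxygen affinity of hemoglobin in red cells, was at 28.1, 24.2 and 26.8 CPM in P2 cells and 11.8, 17.2 and 15.6 CPM in CD324+ cells (log2 fold change 0.81, SE 0.175, adjusted p = 0.00188). In CD31+ cells it was at 16.5, 22.6 and 25.1 CPM, and its difference from P2 cells did not pass the test (adjusted p = 0.150). It was named after its values were seen.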
